A study of Mus musculus with 14 samples.

Results

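Connexins are the proteins from which gap junctions are built. Hexamers of connexins form a half-channel in the membrane of one cell, and the half-channels of adjoining cells dock to let ions and small metabolites pass between their cytoplasms. In the intestinal epithelium gap junctions couple neighbouring cells, and the connexins made differ between epithelial, endothelial and muscle cells. H3K27ac (acetylated lysine 27 of histone H3) marks active promoters and enhancers and was the readout here, so the values below describe chromatin and not connexin transcripts or protein.

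Described here are 6 connexin genes, namely Gjb5, Gjb1, Gjb2, Gjb6, Gja1 and Gja4, out of 20 in the RefSeq gene table, of which 15 had an H3K27ac region. Their members are the H3K27ac regions and ONECUT2 sites for which one of these genes is the nearest protein-coding gene within 100 kb, which gave 15 of 55050 H3K27ac regions and 3 of 7268 ONECUT2 sites. By gene these are 2 regions at Gjb5, 2 at Gjb1, 4 at Gjb2, 2 at Gjb6, 3 at Gja1 and 2 at Gja4. The genes were chosen by their measured H3K27ac, the strong gain at Gjb5 after RANKL, so the H3K27ac contrast at these regions is given as a description, without p-values, and no support is drawn from it. All 15 regions passed the filter on low counts.

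The RANKL libraries came from mouse small intestinal organoids kept for 3 days with 3 µM CHIR99021, a Wnt pathway activator, and 1.5 mM valproic acid, a histone deacetylase inhibitor. These organoids then spent a day in ENR medium alone (EGF, Noggin, R-spondin 1) before 6 days of 100 ng/mL RANKL, the cytokine that induces microfold (M) cells. The control libraries came from organoids of the same line kept 6 days in ENR medium, without CHIR99021, valproic acid or RANKL. Each condition had 3 H3K27ac and 3 ONECUT2 libraries, from experiments the labels number 1 to 3. All organoids derive from the line of 1 female mouse carrying Lgr5GFPDTR/+, which the labels also call wild type. The spread between libraries is therefore that between experiments in 1 line. Effects of RANKL, CHIR99021, valproic acid and the differing culture schedules cannot be told apart.

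Region totals were 2745451 to 3902301 reads in the RANKL libraries and 5434172 to 9160267 reads in the control libraries. Levels are read counts scaled to a common library size (CPM), using the TMM-normalised library size, and since every region is 2000 bp long they can be compared between regions. Epithelial marker genes carried H3K27ac in both conditions, at 2123 to 2200 CPM summed over 10 genes with RANKL and 2204 to 2416 CPM in control, with every RANKL sum below every control sum. Of these 10 genes 3 were called higher and 6 lower with RANKL, from the keratin gene Krt19 at a log2 fold of -0.50 ± 0.05 to Krt20, a keratin of differentiated cells, at 0.78 ± 0.21 (edgeR, adjusted p under 0.05; over all 16133 genes 25.0% were higher and 26.9% lower). Of 12 M cell marker genes tested, 9 were higher with RANKL and 3 were not called, with summed levels of 1099 to 1177 CPM with RANKL and 535 to 553 CPM in control. Their log2 folds ran from -0.18 ± 0.22 at Clu, not called, to 3.49 ± 0.14 at Sox8, a transcription factor gene of M cells. The M cell transcription factor gene Spib stood at 94.6 ± 6.01 CPM with RANKL and 55.8 ± 6.73 CPM in control (SD, n = 3 each).

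The start windows of 4 members, from 250 bases before to 50 bases after an annotated start site, are shown because the results turn on whether acetylation lies at the start of the gene or away from it. They are RefSeq sequence of build GRCm38.p6, 5′ to 3′ on the strand of the gene, and capitals mark motif matches. The 6 genes have 9 such windows, of which 3 lie wholly inside an H3K27ac region, 1 lies partly inside and 5 lie outside. The window of Gjb5 is outside, with its start site 2.28 kb from the nearest region. The windows of Gja4 and Gjb2 and the second of 4 windows of Gjb1 lie wholly inside regions described below.
Gjb5, chr4:127358115-127358414, minus strand: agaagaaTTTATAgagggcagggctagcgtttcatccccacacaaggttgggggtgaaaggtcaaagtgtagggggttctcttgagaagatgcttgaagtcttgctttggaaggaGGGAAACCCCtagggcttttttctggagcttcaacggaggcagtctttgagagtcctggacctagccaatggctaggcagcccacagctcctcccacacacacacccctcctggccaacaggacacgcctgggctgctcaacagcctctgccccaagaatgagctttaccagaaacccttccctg
Gjb1, chrX:101376985-101377284, plus strand: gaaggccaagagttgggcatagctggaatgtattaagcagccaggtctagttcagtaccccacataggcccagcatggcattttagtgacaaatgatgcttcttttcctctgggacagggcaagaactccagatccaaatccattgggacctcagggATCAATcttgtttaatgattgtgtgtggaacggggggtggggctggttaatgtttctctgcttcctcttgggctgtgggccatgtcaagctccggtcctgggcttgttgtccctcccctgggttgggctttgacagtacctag
Gjb2, chr14:57104653-57104952, minus strand: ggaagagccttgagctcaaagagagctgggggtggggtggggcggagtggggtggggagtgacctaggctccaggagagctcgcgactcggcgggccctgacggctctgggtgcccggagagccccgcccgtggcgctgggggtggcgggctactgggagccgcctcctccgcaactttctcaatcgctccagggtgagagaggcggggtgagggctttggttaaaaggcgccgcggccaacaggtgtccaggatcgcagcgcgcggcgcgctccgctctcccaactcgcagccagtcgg
Gja4, chr4:127313990-127314289, minus strand: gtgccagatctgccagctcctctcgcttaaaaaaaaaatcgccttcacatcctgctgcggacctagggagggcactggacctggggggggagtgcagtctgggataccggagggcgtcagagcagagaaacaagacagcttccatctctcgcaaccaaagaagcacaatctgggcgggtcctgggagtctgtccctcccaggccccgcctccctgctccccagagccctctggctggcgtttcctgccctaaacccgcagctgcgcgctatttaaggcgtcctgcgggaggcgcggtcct

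Motifs were searched on both strands, by their letters. The NF-κB consensus was found in 1 of the 9 windows, that of Gjb5, and in 4.79% of 32851 windows of all genes. The ONECUT-type motif ATCAAT was found in 1 of the 9, the second window of Gjb1, and in 7.54% of all windows, while its palindromic form ATCGAT, present in 0.925% of all windows, was in none of the 9. AP-1 (TGANTCA, 7.81% of all windows) had a match in 1 member window, at Gja1, and ETS (GGAAGT, 23.8%) in 1, the fourth window of Gjb1. A match to the TATA box letters TATAAA, present in 13.6% of all windows, was in the Gjb5 window and in the fourth Gjb1 window. The Gjb5 match is on the opposite strand (TTTATA), at the end of the window farthest from the start site, and the Gjb1 match is on the gene's strand. None of these matches overlapped another. The Gjb2 window was 70.0% G and C with 27 CpG, the Gja4 window 62.0% with 16, the Gjb5 window 54.3% with 3 and the second Gjb1 window 51.7% with 2, against medians of 52.7% and 7 CpG over all windows. These matches describe the letters of the windows and were not compared with binding.

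Gjb5, a connexin best known from stratified epithelia and placenta, had the strongest of the 15 regions after RANKL, and that region ranked 9 of 15 in control. It lies 12.6 kb upstream of the Gjb5 start, at chr4:127370728-127372728, outside annotated genes. The assignment of this region to Gjb5 rests on a margin of 4025 bp over the next nearest gene. The RANKL libraries held 112, 107 and 96.5 CPM there and the control libraries 4.64, 5.94 and 4.50 CPM. All 3 RANKL libraries were far above all 3 control libraries. The fold was 20.2, a log2 fold of 4.34 ± 0.15 (SE), which placed it at rank 12 of 54765 regions by log2 fold. Its mean level stood at the 99.4 percentile of all tested regions with RANKL and at the 32.7 percentile in control. More cells carrying the mark and more mark per cell cannot be told apart in these bulk libraries.

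The other Gjb5 region, chr4:127353889-127355889, covers the 3′ end of Gjb5 over 1081 bases. It also touches another annotated span, so its assignment to Gjb5 is a tie. It held 18.9, 27.5 and 23.1 CPM in the RANKL libraries and 4.64, 6.49 and 6.19 CPM in the control libraries. The groups did not overlap, and the log2 fold was 1.98 ± 0.21 (SE), a 3.96-fold difference. Of the reads in both Gjb5 regions together, the upstream region held 82.0% ± 3.19 with RANKL and 46.6% ± 4.07 in control (SD, n = 3 each).

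**Figure D1:**
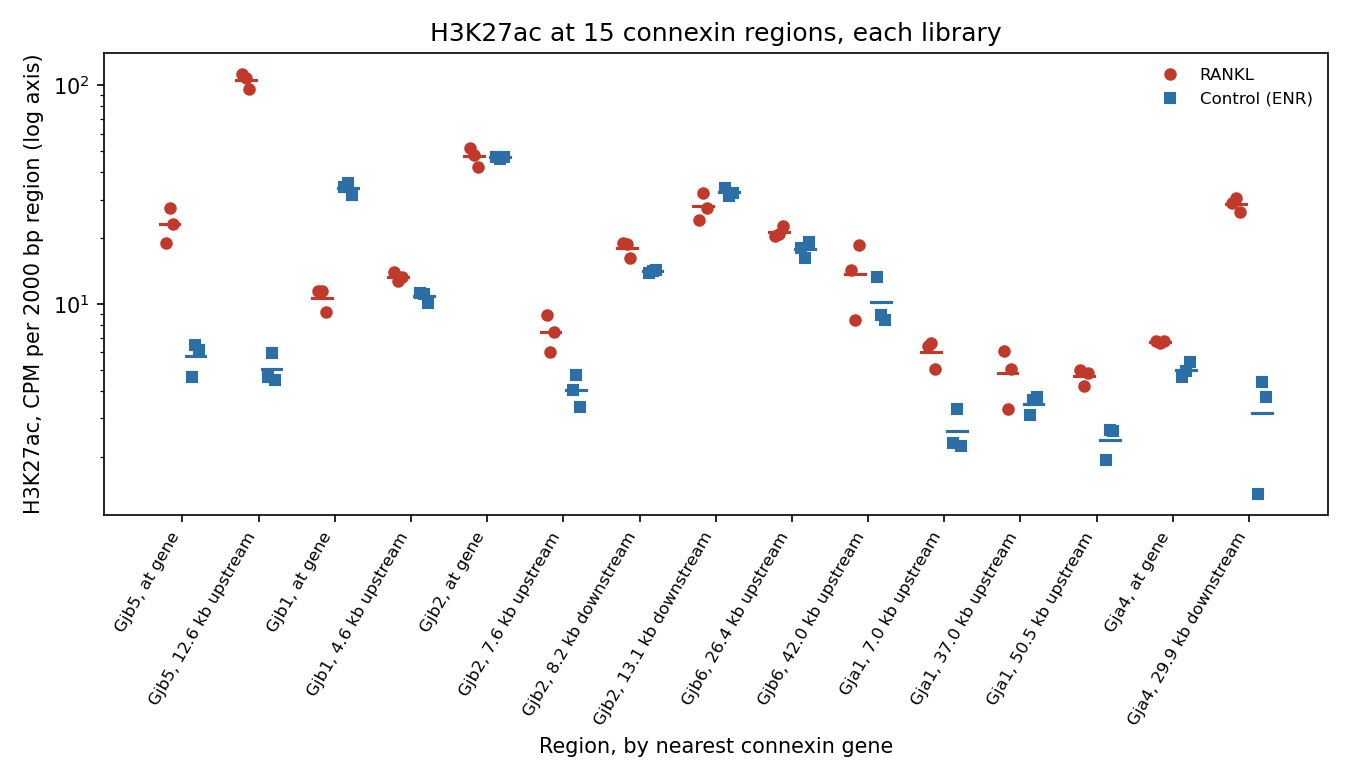
H3K27ac in CPM (log axis) at the 15 connexin regions, with each of 3 RANKL libraries (circles, left of each pair) and 3 control libraries (squares) as a point and the group mean as a line. The region 12.6 kb upstream of Gjb5 sits near 100 CPM with RANKL and near 5 CPM in control, while the region at the Gjb1 gene is the one where the RANKL points lie wholly below the control points.

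Gjb5 and Gja4, the other member on chromosome 4, have 2 regions each. At both genes the region with the larger fold was called higher and lay outside the gene, 12.6 kb upstream of Gjb5 and 29.9 kb downstream of Gja4. The other Gjb5 region was also called higher, and the other Gja4 region was not called.

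**Figure D2:**
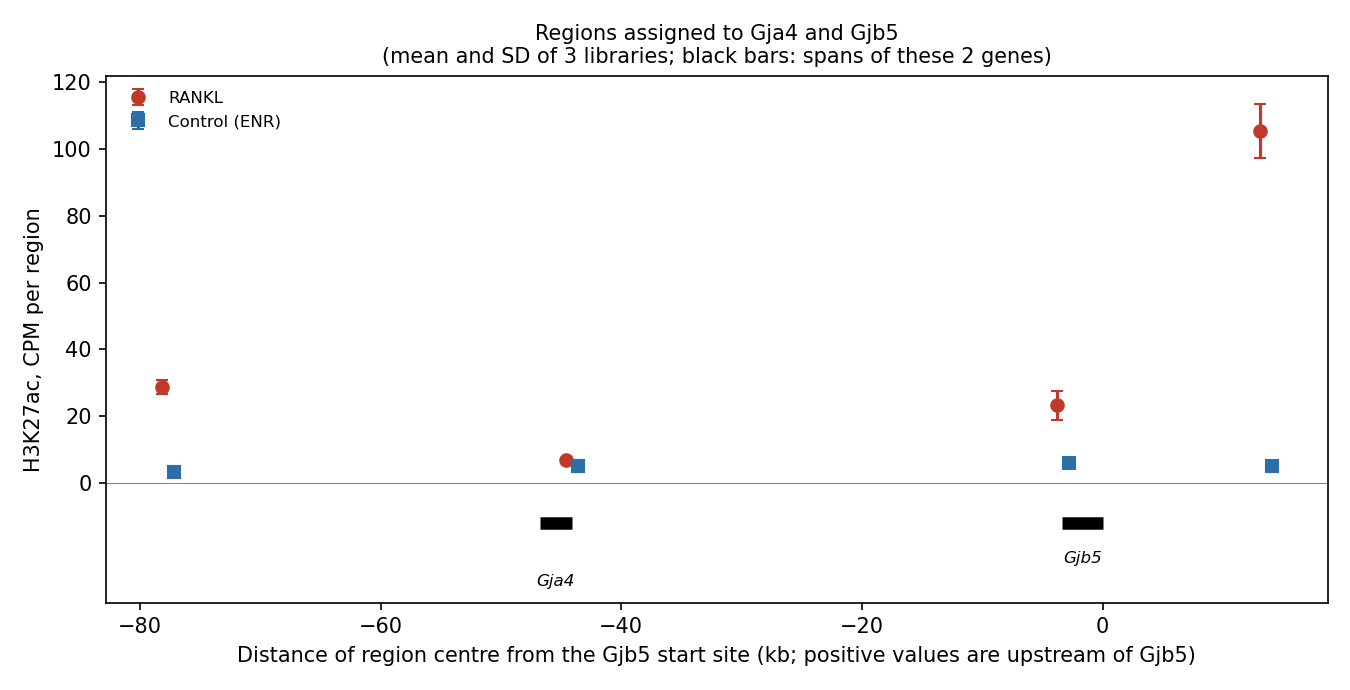
H3K27ac in CPM (mean and SD of 3 libraries) at the 4 regions assigned to Gja4 and Gjb5, plotted by the distance of the region's centre from the Gjb5 start site in kb, with RANKL circles drawn just left of the control squares and the spans of these 2 genes as black bars. The region upstream of Gjb5 averages 105 CPM with RANKL and 5.03 CPM in control, and the region at the Gja4 start averages 6.73 CPM with RANKL and 5.01 CPM in control.

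Gja4, known from arterial endothelium and from the oocyte and its follicle cells, differed most at a distal region. That region, chr4:127279495-127281495, lies 29.9 kb downstream of Gja4, and its assignment to Gja4 rests on a margin of 1761 bp over the next nearest gene. It held 28.9, 30.5 and 26.3 CPM in the RANKL libraries and 1.35, 4.40 and 3.75 CPM in the control libraries. The lowest RANKL value was well above the highest control value, and the log2 fold was 3.07 ± 0.22 (SE), an 8.42-fold difference. The region over the Gja4 start, chr4:127313072-127315072, held 6.78, 6.64 and 6.75 CPM in the RANKL libraries and 4.64, 4.95 and 5.44 CPM in the control libraries. These groups did not overlap either, but the log2 fold of 0.42 ± 0.33 was not called, with an interval (95%) of -0.22 to 1.07. Summed over both regions, Gja4 had a log2 fold of 2.22 ± 0.18, which was 0.61 and no longer called with regions within 10 kb alone.

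Gjb1, the main connexin of hepatocytes and of myelinating Schwann cells, went the other way at its start. Its region chrX:101376214-101378214 covers the first start window in part and the second one, printed above, wholly. It held 11.4, 11.5 and 9.16 CPM in the RANKL libraries and 34.2, 35.6 and 31.5 CPM in the control libraries. All 3 RANKL libraries were below all 3 control libraries, and the log2 fold was -1.68 ± 0.17 (SE), a level 3.21-fold lower with RANKL. This was the one region of the 15 called lower, and it ranked 10 of 15 by level with RANKL and 2 of 15 in control. A region 4.63 kb upstream, chrX:101369743-101371743, held 13.9, 12.7 and 13.3 CPM in the RANKL libraries and 11.2, 11.1 and 10.1 CPM in the control libraries. There the RANKL values were slightly higher without overlap, with a log2 fold of 0.29 ± 0.22 that was not called. The region at the gene held 44.5% ± 3.36 of the reads of both Gjb1 regions with RANKL and 75.7% ± 0.462 in control (SD, n = 3 each).

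Gjb2 and Gjb6 are neighbours on chromosome 14, act together in the supporting cells of the cochlea, and are both genes of inherited deafness in humans. The Gjb2 start region, chr14:57103718-57105718, which also overlaps the long noncoding RNA gene Gm32912, was the strongest of the 15 regions in control. It held 51.8, 48.0 and 42.2 CPM in the RANKL libraries and 47.0, 46.1 and 47.1 CPM in the control libraries. The groups overlapped, and the log2 fold of 0.01 ± 0.12 had an interval (95%) of -0.22 to 0.24, though it was 0.31 and called higher with the signal trend removed, an alternative scaling that takes out the dependence of the fold on signal strength. The region 13.1 kb downstream, chr14:57083544-57085544, held 24.3, 32.0 and 27.5 CPM with RANKL and 34.0, 31.2 and 32.1 CPM in control. Its log2 fold of -0.21 ± 0.13 was not called and turned to 0.08 with the signal trend removed.

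The other Gjb2 regions were weaker. The one 7.63 kb upstream, chr14:57112331-57114331, overlaps Gm32912 as well and is only 1341 bp nearer to Gjb2 than to Gjb6. It held 8.93, 6.04 and 7.48 CPM in the RANKL libraries and 4.06, 4.73 and 3.38 CPM in the control libraries. The groups did not overlap and the log2 fold of 0.85 ± 0.34 was called higher, but the call ended with DESeq2 (0.87), with the signal trend removed (0.60), and without RANKL replicate 1 (0.72), RANKL replicate 3 (0.85), control replicate 1 (0.84) or control replicate 3 (0.74). The one 8.21 kb downstream averaged 17.9 ± 1.54 CPM with RANKL and 14.1 ± 0.169 CPM in control (SD, n = 3 each), with a log2 fold of 0.34 ± 0.19 that was not called.

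Gjb6 had no region at its gene, and its start site was 19.3 kb from the nearest one. Its region 26.4 kb upstream, chr14:57159983-57161983, held 20.3, 20.8 and 22.7 CPM in the RANKL libraries and 18.0, 16.3 and 19.1 CPM in the control libraries. The groups did not overlap, and the log2 fold of 0.28 ± 0.17 was not called, except with the signal trend removed (0.44). The region 42.0 kb upstream held 14.3, 8.45 and 18.6 CPM in the RANKL libraries and 13.3, 8.91 and 8.44 CPM in the control libraries. Its RANKL libraries spread widely, and the lowest of them lay beside the lowest control library. The log2 fold of 0.47 ± 0.22 was not called, but became called by library size only (0.57), without RANKL replicate 2 (0.72) and without control replicate 1 (0.68).

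Gja1, the most widely expressed connexin and the main one of ventricular muscle, had weak regions only, all upstream of the gene and none over its start. The nearest one, 7.02 kb upstream at chr10:56368279-56370279, held 6.43, 6.64 and 5.06 CPM in the RANKL libraries and 2.32, 3.30 and 2.25 CPM in the control libraries. The groups did not overlap and the log2 fold of 1.15 ± 0.40 was called higher, a call that ended with the signal trend removed (0.81), without RANKL replicate 2 (1.07) and without control replicate 3 (1.05). The regions 37.0 and 50.5 kb upstream averaged 4.82 ± 1.39 and 4.68 ± 0.404 CPM with RANKL and 3.49 ± 0.351 and 2.40 ± 0.405 CPM in control (SD, n = 3 each). Neither was called, with log2 folds of 0.45 ± 0.40 and 0.94 ± 0.43. The region 50.5 kb from Gja1 was the farthest inside the limit of 100 kb, and the nearest region beyond it, 160 kb from Gja1, averaged 4.59 ± 1.82 CPM with RANKL and 1.45 ± 0.376 CPM in control.

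**Figure D3:**
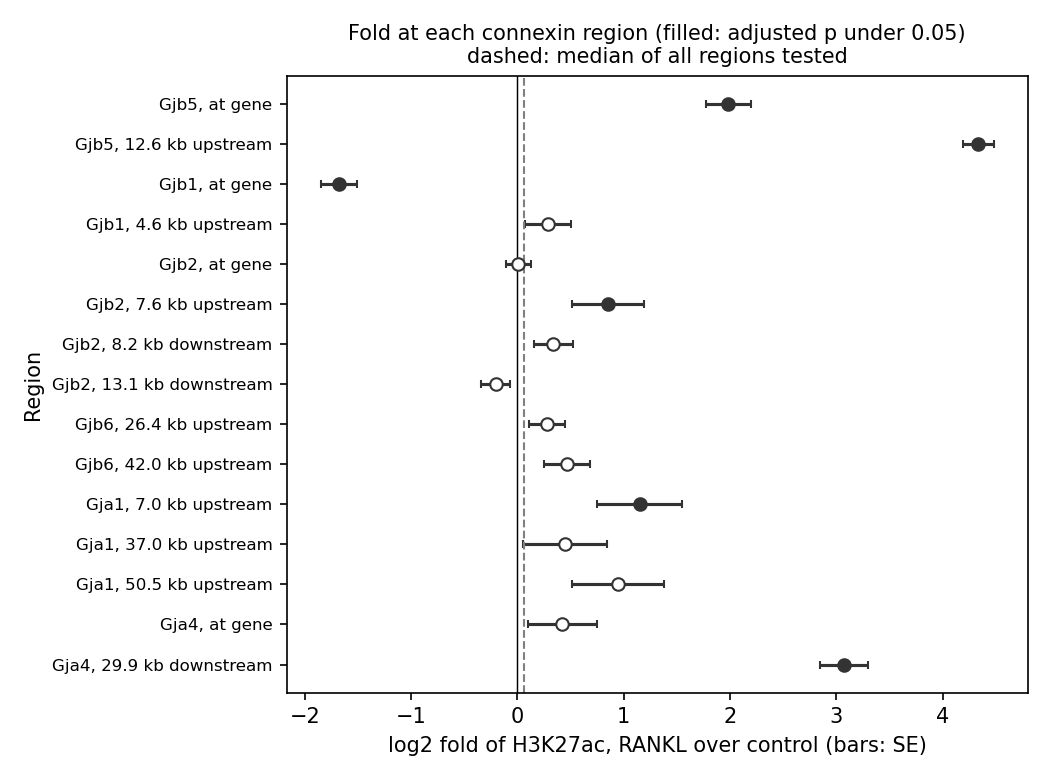
Log2 fold of H3K27ac, RANKL over control, with its SE at each of the 15 connexin regions (filled points have an adjusted p under 0.05, the dashed line is the median of all regions tested). Gjb5 and the distal Gja4 region stand furthest right, the Gjb1 gene region stands alone on the left at -1.68, and the remaining regions lie between -0.21 and 1.15.

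Of the 15 regions, 5 were called higher with RANKL, 1 lower and 9 were not called (edgeR, adjusted p under 0.05 over all regions). Over all 54765 regions tested, 14.8% were called higher and 21.0% lower. The RANKL libraries lay above all control libraries at 10 of the 15 and below them at 1, compared with 20.6% and 24.2% of all regions. The median log2 fold was 0.45 over the 15 and 0.06 over all regions. Nothing is read from these shares, since the contrast led to the choice of genes. Of the 5 regions called higher, those at Gjb5 and the distal one of Gja4 kept the call in all 12 alternatives run on them, as did the lower call at the Gjb1 gene. These alternatives refit the same counts that led to the choice, so they show dependence on the processing and give no support.

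In order of mean level with RANKL, the region upstream of Gjb5 came first at 105 ± 8.19 CPM, followed by the Gjb2 start region at 47.3 ± 4.82 CPM. The distal Gja4 region at 28.6 ± 2.13 CPM and the region 13.1 kb from Gjb2 at 27.9 ± 3.88 CPM did not differ beyond their spread, nor did the Gjb5 gene region at 23.2 ± 4.28 CPM and the nearer Gjb6 region at 21.3 ± 1.22 CPM. In control the order was led by the Gjb2 start region at 46.7 ± 0.531 CPM, the Gjb1 gene region at 33.8 ± 2.10 CPM and the region 13.1 kb from Gjb2 at 32.4 ± 1.42 CPM, of which the last pair did not differ beyond their spread. The weakest were the 3 regions of Gja1 and the distal Gja4 region, all between 2.40 and 3.49 CPM. Gja1 and Gja4 regions thus lay at or below the 32.6 percentile of all regions in control, and the Gjb2 start region at the 87.8 percentile.

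**Figure D4:**
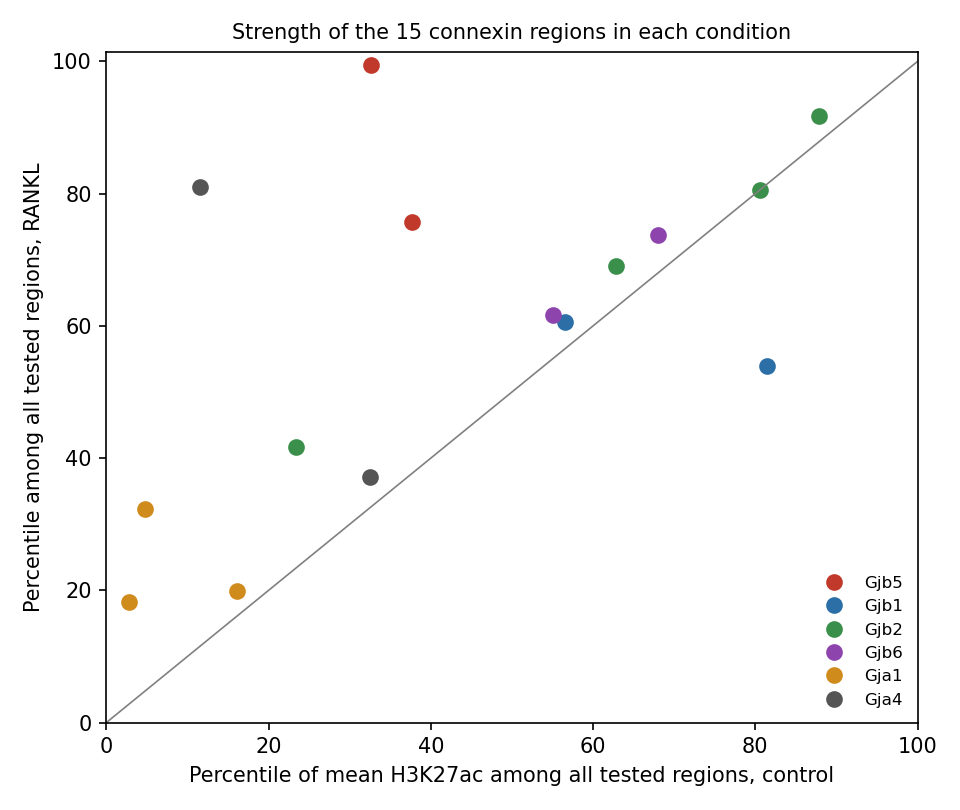
Percentile of the mean H3K27ac level among all tested regions with RANKL (vertical axis) against that in control (horizontal axis), one point per connexin region and a line of equal percentiles. The upstream Gjb5 region lies at the 99.4 percentile with RANKL and the 32.7 in control, the distal Gja4 region at 81.0 and 11.5, and the Gjb1 gene region, below the line, at 54.0 and 81.5.

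Summed over their regions, 5 of the 6 genes were called higher and 1, Gjb1, lower, where 25.0% of 16133 genes were higher and 26.9% lower. Nothing is read from these shares either, since the contrast led to the choice of genes. Gene sums are scaled separately from regions, with RANKL TMM factors of 0.983 to 0.998 at genes and 1.02 to 1.06 at regions. The control factors were 1.00 to 1.02 at genes and 0.953 to 0.993 at regions. The same reads therefore give a higher log2 fold as a gene sum than as a region. Gjb5 led with 143 ± 6.51 CPM with RANKL and 10.8 ± 1.74 CPM in control (SD, n = 3 each), a log2 fold of 3.68 ± 0.11, and 2.17 with regions within 10 kb alone. The log2 folds were 0.99 ± 0.23 for Gja1, 0.50 ± 0.14 for Gjb6, 0.19 ± 0.08 for Gjb2 and -0.76 ± 0.13 for Gjb1. The Gjb6 sum exceeds the log2 folds of both its regions, 0.28 and 0.47, neither of them called. Among the Gjb2 regions only the weak one 7.63 kb upstream was called. The Gjb6 call ended without RANKL replicate 3 (0.33). The Gjb2 call ended by library size only (0.16), with DESeq2 (0.20) and without RANKL replicate 1 (0.18), RANKL replicate 2 (0.17), control replicate 1 (0.20) or control replicate 3 (0.18). Of the 2 regions summed for Gjb1, the one at the gene was called lower and the other was not called.

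ONECUT2, a transcription factor of the cut homeodomain family, was profiled in separate libraries of the same design, which the choice of genes did not use. The authors' deposited table lists 3 sites at these genes, 2 upstream of Gjb6 and 1 upstream of Gjb1, all higher with RANKL. No listed site fell to Gjb5, Gjb2, Gja1 or Gja4, and the listed site nearest to the upstream Gjb5 region was 348 kb away. Of the 6 genes 2 had a listed site, compared with 26.6% of 16200 genes with an H3K27ac region. By the ratio of FDR to p in the authors' deposited table, about 7734 sites were tested, of which 94.0% are listed and 93.9% are listed as higher, so the direction at these 3 sites is that of nearly all sites tested.

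The Gjb1 site, chrX:101370468-101370868, is inside the H3K27ac region 4.63 kb upstream of the gene and 5.35 kb from the region that was lower. In the authors' deposited table it has a mean of 20.0 normalised reads with RANKL and 7.05 in control, a log2 fold of 1.41 and an FDR of 0.00216. The Gjb6 site chr14:57160576-57160976 is inside the region 26.4 kb upstream, and the authors' deposited table gives it 18.1 normalised reads with RANKL and 6.85 in control, a log2 fold of 1.33 and an FDR of 0.00610. The second Gjb6 site, chr14:57177984-57178384, is 411 bp from the region 42.0 kb upstream, and the authors' deposited table gives it 15.5 normalised reads with RANKL and 4.27 in control, a log2 fold of 1.71 and an FDR of 0.00204. At each of these sites the deposited log2 fold is smaller than the log2 ratio of the deposited means. All 3 log2 folds are below the median log2 fold of 1.86 over the 7268 sites of the authors' deposited table. H3K27ac was not called at any of the 3 regions beside these sites, with log2 folds of 0.29, 0.28 and 0.47, and 2 of the 15 connexin regions overlapped a site, against 5.32% of all regions.

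Among 14 further connexin and pannexin genes (pannexins form related channels of single membranes), 9 had a tested region. Of these, 1 was higher, 2 were lower and 6 were not called, where 25.0% of all 16133 genes were higher and 26.9% lower. The median log2 fold of the 9 was -0.08 (0.01 without RANKL replicate 3) against 0.01 over all genes. Gjd2, the connexin of neuronal electrical synapses, was higher (5.48 ± 1.34 CPM with RANKL and 2.75 ± 0.368 CPM in control, log2 fold 1.01 ± 0.40, edgeR adjusted p = 0.0303). That call ended with the signal trend removed (0.57), with DESeq2 (1.01) and without RANKL replicate 1 (0.97), RANKL replicate 3 (0.83), control replicate 1 (0.95) or control replicate 2 (0.95). Gjd2 has 1 region, and fitted as a region the same reads had a log2 fold of 0.85 ± 0.42 that was not called. Gjd3 was lower (9.19 ± 2.43 CPM with RANKL and 14.4 ± 2.60 CPM in control, log2 fold -0.65 ± 0.24, edgeR adjusted p = 0.0187), as was Panx2 (13.6 ± 2.64 CPM with RANKL and 18.9 ± 2.22 CPM in control, log2 fold -0.50 ± 0.20, edgeR adjusted p = 0.0277). The call of Gjd3 ended with DESeq2 (-0.64), at gene ends alone (-0.47) and without RANKL replicate 2 (-0.46) or control replicate 2 (-0.48). The call of Panx2 ended with DESeq2 (-0.49), at gene ends alone (-0.33) and without RANKL replicate 2 (-0.40), RANKL replicate 3 (-0.47) or control replicate 2 (-0.40). Gjd3 and Panx2 also have 1 region each, at the gene, so gene ends alone hold the same reads under another scaling. Fitted as regions, these reads had log2 folds of -0.80 ± 0.23 at Gjd3 and -0.66 ± 0.19 at Panx2, both called lower.

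The genes not called among these were Gja3, Gja5, Gja6, Gjc3, Gjd4 and Panx1, whose log2 folds ran from -0.61 at Gja6 to 0.46 at Gjd4. The value of Gja6 became called lower with the signal trend removed (-1.02) and without RANKL replicate 3 (-1.22). Panx1, the broadly expressed pannexin, had a log2 fold of 0.20 ± 0.10 that became called higher with the signal trend removed (0.31), without RANKL replicate 3 (0.29) and at gene ends alone (0.30). Its strongest region, which overlaps the gene, averaged 47.5 ± 4.78 CPM with RANKL and 48.2 ± 1.99 CPM in control (SD, n = 3 each). Fitted as a region, it had a log2 fold of -0.03 ± 0.12 that was not called. Gene ends alone are scaled separately from regions. Of 12 genes whose products bind, traffic or phosphorylate connexins, 11 were tested, with 4 higher, 4 lower and 3 not called. Over all 16133 genes 25.0% were higher and 26.9% lower. The median log2 fold of the 11 was 0.12. With the signal trend removed 2 were higher and 3 lower, and at gene ends alone 4 were higher and 1 lower of 10. The lowest log2 fold of the 11 was at Cnst, which encodes the connexin trafficking protein consortin (-0.34 ± 0.12, edgeR adjusted p = 0.0149). The highest was at the tyrosine kinase gene Src (0.57 ± 0.05, edgeR adjusted p = 2.83e-14). This list and that of further connexins and pannexins were chosen with earlier results of these data known. The adjusted p-values printed for their genes are therefore a description.

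Since Gja1 and Gja4 are also connexins of mesenchyme and vessels, markers of other cell types stand beside their values. Over all 16133 genes 25.0% were called higher and 26.9% lower. Endothelial markers had 6 of 10 tested genes higher and 3 lower, from Eng at -1.17 ± 0.13 to Flt1 at 1.39 ± 0.11 (log2 fold), with summed levels of 570 to 585 CPM with RANKL and 500 to 522 CPM in control. Mesenchymal markers had 5 of 11 higher and 6 not called, from Vim at -0.41 ± 0.49, not called, to Pdgfrb at 2.41 ± 0.14, with 388 to 407 CPM with RANKL and 306 to 330 CPM in control. The 5 higher calls became 2 without RANKL replicate 1, and 3 without RANKL replicate 3 or control replicate 3, by library size only, with the signal trend removed and with DESeq2. At gene ends alone, 5 mesenchymal genes were tested and not called. By library size only, without RANKL replicate 2 and within 10 kb, 1 of these markers was called lower. Leukocyte markers had 5 of 7 higher and 1 lower, from Itgax at -0.66 ± 0.23 to Cd52 at 1.28 ± 0.28, with 184 to 197 CPM with RANKL and 139 to 159 CPM in control. Within 10 kb, 4 of 10 endothelial markers were higher and 2 lower, and at gene ends alone 2 were tested and neither was called. The leukocyte calls became 4 higher and 0 lower of 7 without RANKL replicate 2, and 2 higher of 3 at gene ends alone. The markers Lum, Tie1, Cd3e and Lyz2 had no tested region. The part of such cells in the connexin values was not tested.

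By distance between centred log2 levels over the 6 libraries, the genes most like Gjb5 in their summed H3K27ac were Fam209, Rec114, Adamts13, F10 and Stra6, at distances of 0.258, 0.292, 0.365, 0.425 and 0.515. Fam209 averaged 66.2 ± 2.84 CPM with RANKL and 4.18 ± 0.384 CPM in control (SD, n = 3 each). Rec114, a gene of meiotic recombination, averaged 131 ± 3.98 CPM with RANKL and 8.99 ± 2.50 CPM in control. Stra6, the receptor for retinol-binding protein, averaged 229 ± 11.4 CPM with RANKL and 15.1 ± 3.04 CPM in control. None of these 5 genes lies on chromosome 4.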

How the data were processed

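ChIPmentation of H3K27ac and ONECUT2 was done in 3 RANKL and 3 control libraries each. The authors deposited raw read counts per 2000 bp H3K27ac region. They deposited ONECUT2 log2 means, a log2 fold and a p-value with its FDR per 401 bp site, made with DiffBind on mm10 per the submitters' processing notes, without values per library. The sources used here do not give the aligner, peak caller, duplicate handling or DiffBind version. The normalised H3K27ac table and the inputs were not used here.

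Regions and sites were assigned to the nearest of 21896 RefSeq protein-coding spans (GRCm38.p6) within 100 kb, ties to the span with the nearer middle. Counts were tested with edgeR 4.0.16 in R 4.3.3 (quasi-likelihood, TMM, filterByExpr, adjusted p under 0.05 over all 54765 regions or 16133 summed genes). CPM follow these factors, and SE is the log2 fold over the root of F. The fit was tested on simulated data. Coordinates are as deposited, and whether region starts count from 0 is not known.

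Members and lists were chosen with earlier results of these data known, and some genes of the lists are not reported here. Named were all member regions and sites, every connexin or pannexin gene with a region in the further list, the extremes of each other list with Spib, and the 5 genes nearest to Gjb5 in centred log2(CPM + 0.5). Libraries of both arms are numbered by experiment in the labels, and deviations of same-numbered libraries correlated at 0.0145, -0.0260 and -0.00700. Replicates differed beyond sampling noise (chi-square per degree of freedom 1.80 to 2.06). Alternatives were other scalings, no filter, DESeq2 1.42.0, the replicate block, each library left out, shorter distances and, for sites, an FDR under 0.01.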

Additional observations from a re-analysis of the deposited data

How the results depend on the processing

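Over all regions, 8120 were called higher and 11523 lower, and the region counts kept within 1.5 times of these in every alternative run (by library size only 9918 and 9608). Gene counts were 4034 higher and 4339 lower, and with regions within 2 kb of gene ends alone 2552 and 2713, where fewer regions entered. Of the 15 regions of the 6 genes, 5 were called higher and 1 lower. Leaving out 1 library at a time gave 3 to 5 higher, the 3 being without control replicate 3, where the weak Gja1 and Gjb2 regions lost the call, and 1 lower each time. Regions within 10 kb alone gave 3 higher, since the distal Gja4 and Gjb5 regions drop out. With the replicate block (experiment number as a term), 5 of the 15 regions were higher and 1 lower, 7708 and 11095 regions were called in all, and no call of a connexin or pannexin value changed. Of the 3 ONECUT2 sites, all 3 have an FDR under 0.01 and 1 lies within 10 kb of its gene. The 3 Gja1 regions hold 10 to 33 reads per library, and depth limits their log2 folds to SEs of 0.40 to 0.43.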
